A study of Mus musculus with 9 samples.

Results

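Semaphorins are a family of secreted and membrane-bound guidance cues, and plexins and neuropilins are the receptors that read them. The genes described here are the 31 members of these families that the array measured under a name of their own, 20 semaphorins of classes 3 to 7 as ligands and 9 plexins and 2 neuropilins as receptors, of 22180 genes in all. They were taken by gene symbol, with earlier results of these data known. Where a gene had more than 1 array feature, the one brightest on average was taken. The RNA came from cerebral cortices of wild-type CD1 mice between embryonic days 12 and 13, and 3 forms of it were measured, each as 3 biological replicates. One was RNA precipitated with a rabbit antibody to Pum2, a Pumilio family protein known to bind elements in mRNAs and hold back their translation. Another was RNA precipitated with normal rabbit IgG, the background of the method, and the last was total input RNA taken without an antibody. All groups share genotype, strain, stage and tissue, and every value is a log2 signal of a Mouse Gene 2.0 ST array. The labels do not say how many embryos were pooled for a replicate. A p-value here sets a difference against the spread between these arrays, as moderated by limma over all genes.

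A plexin is a transmembrane receptor whose cytoplasmic part acts on small GTPases of the Ras and Rap type, and so alters the cytoskeleton and the adhesion of a growth cone or a migrating cell. Most secreted class 3 semaphorins cannot bind a plexin firmly on their own and use a neuropilin as the ligand-binding partner, whereas class 4 to 7 semaphorins are anchored in the membrane and mostly bind plexins directly. In the embryonic cortex these proteins steer axons and dendrites, guide migrating neurons and shape blood vessels.

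The 9 arrays correlated within a group with Pearson r between 0.994 and 0.996 across genes, which are not independent replicates. Of 9 measured markers of the embryonic dorsal cortex, all lay at or above the median signal of all genes (log2 6.08). So did 7 of 7 endothelial and 6 of 6 meningeal markers, so this count alone does not identify the tissue. It was reached by 4 of 6 microglial, 3 of 6 ganglionic eminence and 2 of 3 pericyte markers. Markers of other cells were present too. The mean log2 level of 7 endothelial markers was 8.21 to 8.29 in the Pum2 arrays, 7.54 to 7.91 in the IgG arrays and 7.51 to 7.64 in the input arrays, and that of 6 meningeal markers was 8.01 to 8.11 with Pum2, 7.57 to 7.87 with IgG and 7.35 to 7.42 in input. The mean of 6 microglial markers was 6.16 to 6.19 with Pum2, 5.79 to 6.02 with IgG and 5.93 to 6.11 in input. The mean of the dorsal cortex markers was also higher with Pum2 (10.03 to 10.18) than with IgG (9.86 to 9.95) and in input (9.68 to 9.71). Not all of them followed. Neurod6 was lower with Pum2 than with IgG (log2 difference -0.76) and in input (-0.56), Bcl11b was lower than with IgG (-0.25), and Pax6 stayed level. Means of 6 ganglionic eminence markers were 6.07 to 6.17 with Pum2, 5.83 to 5.98 with IgG and 5.79 to 5.98 in input. Those of 3 pericyte markers were 7.17 to 7.33, 7.11 to 7.28 and 7.06 to 7.09. Of these lists, Gad2 (-0.41) and Rgs5 (-0.71) were lower with Pum2 than with IgG. The part of any cell type in the results below was not tested, and in input RNA fewer cells of a type and less RNA per cell cannot be told apart.

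Signals of most semaphorin, plexin and neuropilin transcripts were higher in Pum2 precipitates than in input, and those of a smaller number were higher than in IgG precipitates. The values are normalized signals of amplified cDNA. They give the level of a transcript relative to the others on its array, and not the amount of RNA that a precipitate held. A gene is called here at an adjusted p under 0.05 in limma. Against IgG, 12 of 31 were called higher, where 19.4% of all genes were called higher and 11.4% lower. The largest rises were those of Plxna1 (1.71-fold), the transmembrane semaphorin Sema4b (1.5-fold) and Sema7a (1.45-fold). None was called lower against IgG by limma, and 1, Sema6a, had an unadjusted p under 0.05 in that direction, as did 3268 of all 22180 genes. With the arrays centred on the brighter genes 8 were called higher and 3 lower than in IgG, where 2790 of all 22180 genes were called higher and 4072 lower. With quantile normalization over all features, chosen after seeing the data, 19 were called higher, as were 8093 of all genes. Against input, 25 of 31 were called higher, where 21.6% of all genes were called higher and 13.1% lower. The IgG precipitate itself gave higher relative signals of these transcripts than input. Of 31, 16 were called higher in IgG over input, where 8.25% of all genes were called higher and 9.72% lower. All 31 had a positive difference on the features used. At an unadjusted p under 0.05 also 0 were lower in either comparison with input. Of all genes, 3451 were so in Pum2 over input and 3351 in IgG over input. The 3 comparisons share arrays, so their values stand side by side here and are not independent of each other.

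**Figure D1:**
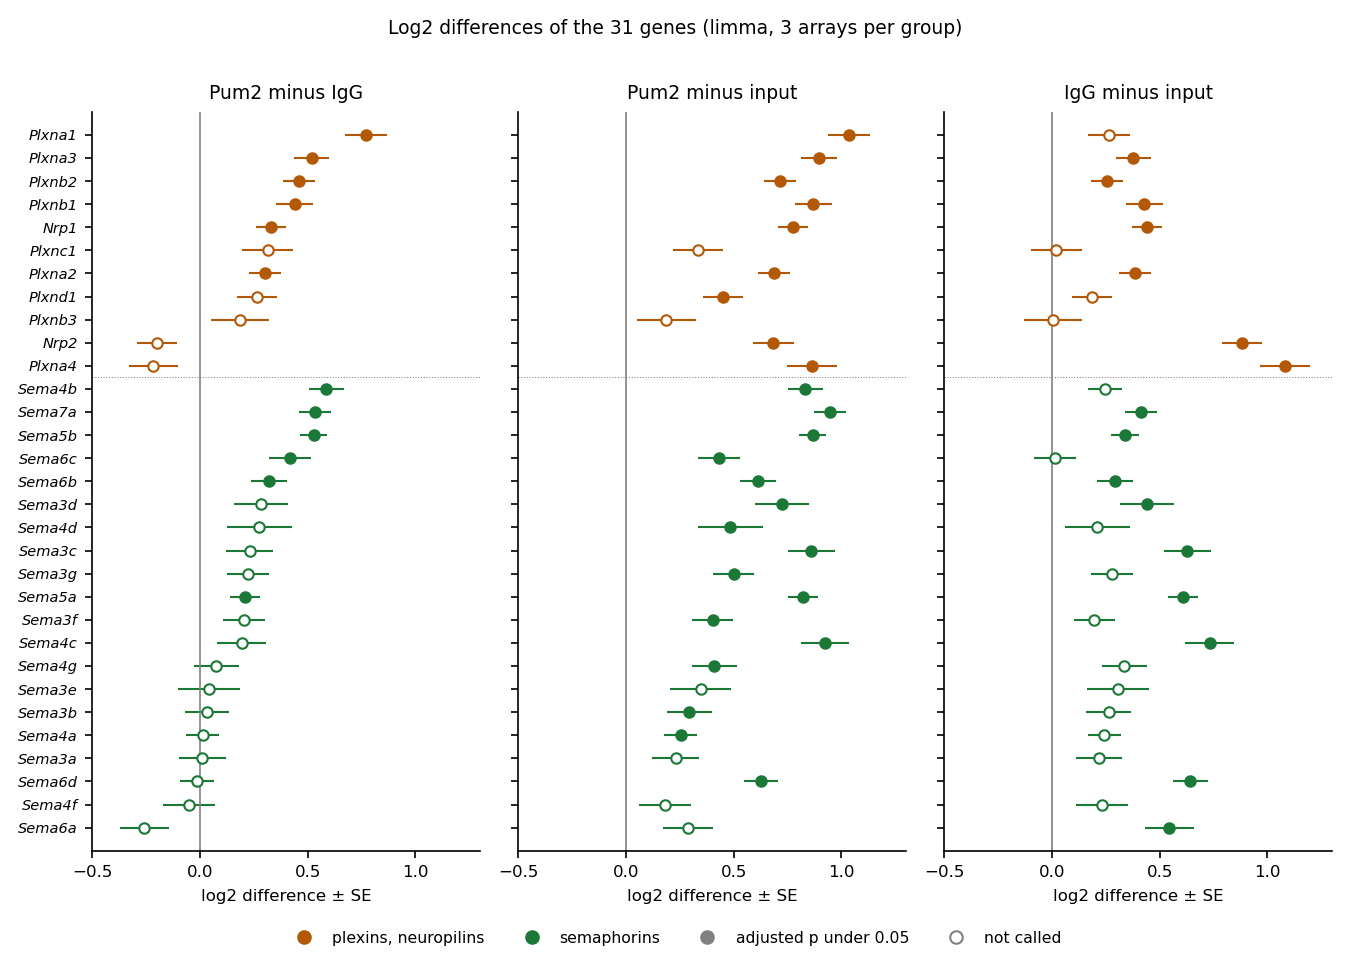
Log2 differences with their standard errors for the 31 genes, plexins and neuropilins above and semaphorins below, in the 3 comparisons (x axis, log2 difference; 3 arrays per group). Filled points have a limma adjusted p under 0.05; 12, 25 and 16 points are filled from left to right, and no point of the middle or right panel lies below 0.

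The members are for the most part well measured, which matters for the counts. Of the 31, 24 lay at or above the median signal, and the 7 below it were Plxnb3, Sema3a, Sema3b, Sema3d, Sema3e, Sema3g and Sema4f. All 12 calls against IgG came from the brighter 24, a share of 50%, beside 34.1% of all genes at or above the median signal. Against input 22 of the 24 were called higher (91.7%), beside 37.0% of the brighter genes. In IgG over input 15 of the 24 were called higher (62.5%), beside 13.8% of the brighter genes. Without any model, the 3 Pum2 arrays lay wholly above the 3 IgG arrays for 16 members (25.9% of all genes) and wholly below them for 2 (15.4% of all genes). The Pum2 arrays lay wholly above input for 27 members (28.5% of all genes), and the IgG arrays wholly above input for 22 (15.9% of all genes). These shares also rise with signal. Of the 24 brighter members, 62.5% lay wholly above in Pum2 over IgG, beside 41.7% of the brighter genes. In Pum2 over input they were 95.8% beside 44.4%, and in IgG over input 83.3% beside 23.9%.

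Among the receptors, the class A plexins, which serve as signalling partners of neuropilins and as receptors of class 5 and 6 semaphorins, held the largest rise and the lowest difference against IgG. Plxna1 stood at 11.07, 11.22 and 10.92 in the Pum2 arrays, at 10.17, 10.41 and 10.32 in the IgG arrays and at 10.08, 10.07 and 9.96 in input. Its Pum2 arrays stood clear of the others, and its IgG arrays lay only just above input. The log2 difference was 0.77 ± 0.10 for Pum2 over IgG (± SE, 3 arrays a group, adjusted p = 2.12e-04 by limma) and 1.03 ± 0.10 for Pum2 over input. For IgG over input it was 0.26 ± 0.10 (adjusted p = 0.0919), called higher under 4 of 15 alternative settings. Plxna3, a receptor partner of Nrp2 in the repulsion by Sema3f, measured 9.34, 9.45 and 9.30 with Pum2, 8.81, 8.84 and 8.88 with IgG and 8.59, 8.47 and 8.35 in input. The 3 groups formed separate steps, and the step over IgG was 0.52 ± 0.08 (adjusted p = 8.79e-04). Plxna2, which binds Sema6a, showed smaller steps of the same order. It measured 11.70, 11.72 and 11.75 with Pum2, 11.43, 11.36 and 11.47 with IgG and 11.05, 10.93 and 11.12 in input. It rose over IgG by 0.30 ± 0.07 (adjusted p = 0.0111), a call lost with the arrays centred on the brighter genes (0.175, adjusted p = 0.113).

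Plxna4, the fourth class A plexin and a receptor of Sema3a and Sema6a in growing axons, did not share this order. Its arrays read 10.31, 10.29 and 10.35 with Pum2, 10.25, 10.59 and 10.76 with IgG and 9.49, 9.37 and 9.50 in input. The Pum2 arrays fell inside the wide range of the IgG arrays, and both precipitates stood far above input. The difference from IgG was -0.22 ± 0.12 (adjusted p = 0.200), whereas IgG exceeded input by 1.08 ± 0.12 (2.12-fold, adjusted p = 2.83e-04), the largest difference of any member in that comparison. Pum2 exceeded input by 0.87 ± 0.12. The difference from IgG was called lower without IgG replicate 1 (-0.356, adjusted p = 0.0140) and with centring on the brighter genes (-0.342).

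Of the class B plexins, receptors of class 4 semaphorins, 2 of 3 were called higher against IgG, beside 19.4% of all genes. Plxnb2, a receptor for Sema4c on neural precursors, stood at 11.23, 11.36 and 11.21 with Pum2, 10.74, 10.87 and 10.81 with IgG and 10.51, 10.63 and 10.51 in input. Pum2 exceeded IgG by 0.46 ± 0.08 (1.37-fold, adjusted p = 0.00118) and input by 0.71 ± 0.08. IgG over input, 0.26 ± 0.08, passed narrowly (adjusted p = 0.0432) and was lost under 6 of 15 alternatives, among them leaving out IgG replicate 2 or 3 or input replicate 1 or 3. Plxnb1, the receptor of Sema4d, read 9.44, 9.54 and 9.56 with Pum2, 8.98, 9.14 and 9.11 with IgG and 8.68, 8.75 and 8.51 in input, again in 3 separate steps. Its difference from IgG was 0.44 ± 0.09 (adjusted p = 0.00314) and from input 0.87 ± 0.09. A second, dimmer Plxnb1 feature did not follow, with -0.02 for Pum2 over IgG and -0.38 for Pum2 over input. With the mean of both features in its place, Plxnb1 was called in none of the comparisons (0.21 for Pum2 over IgG, 0.246 for Pum2 over input, 0.036 for IgG over input). Plxnb3, the third of the class, was of low signal and averaged 5.10 ± 0.05 with Pum2, 4.92 ± 0.14 with IgG and 4.92 ± 0.29 in input (SD, n = 3 each), with overlapping arrays.

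The single plexins of classes C and D were not called against IgG, although their Pum2 arrays lay wholly above the IgG arrays. This held for 25.9% of all genes and for 41.7% of those at or above the median signal. Plxnc1, the receptor of Sema7a, averaged 8.02 ± 0.22 with Pum2, 7.71 ± 0.02 with IgG and 7.69 ± 0.16 in input (SD). The difference of Pum2 was 0.31 ± 0.12 from IgG (adjusted p = 0.0701) and 0.33 ± 0.12 from input (adjusted p = 0.0503), and IgG and input differed by 0.02. Plxnc1 was called over IgG under 4 of 15 alternatives, among them leaving out Pum2 replicate 3 (adjusted p = 0.0104), and over input under 6 of 15, among them leaving out Pum2 replicate 3 or input replicate 2. Plxnd1, the receptor of Sema3e that is best known from blood vessels, averaged 9.42 ± 0.08 with Pum2, 9.16 ± 0.17 with IgG and 8.97 ± 0.03 in input. It was called over input (0.45 ± 0.09, adjusted p = 0.00336) and just missed the threshold over IgG (0.26 ± 0.09, adjusted p = 0.0556). The call over IgG was made under 3 of 15 alternatives, among them leaving out IgG replicate 3.

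Of the neuropilins, Nrp1 was called higher than in IgG and Nrp2 was not. Nrp1, which binds Sema3a and also the vascular growth factor VEGF, read 9.59, 9.52 and 9.59 with Pum2, 9.17, 9.23 and 9.30 with IgG and 8.78, 8.76 and 8.84 in input. It rose over IgG by 0.33 ± 0.07 (adjusted p = 0.00464) and over input by 0.77 ± 0.07, and with centring on the brighter genes the first of these fell just short (0.205, adjusted p = 0.0524). Nrp2, which binds Sema3f, read 9.08, 9.08 and 8.99 with Pum2, 9.08, 9.26 and 9.41 with IgG and 8.43, 8.40 and 8.27 in input. The lowest IgG array lay just above the highest Pum2 array, and both precipitates lay far above input. Its difference from IgG was -0.20 ± 0.09 (adjusted p = 0.142), while IgG exceeded input by 0.88 ± 0.09 (1.85-fold, adjusted p = 2.59e-04). Without IgG replicate 1 (-0.283, adjusted p = 0.0419), with centring on the brighter genes (-0.325, adjusted p = 0.0174), and with quantile normalization of the genes run again (-0.319), Nrp2 was called lower than in IgG.

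**Figure D2:**
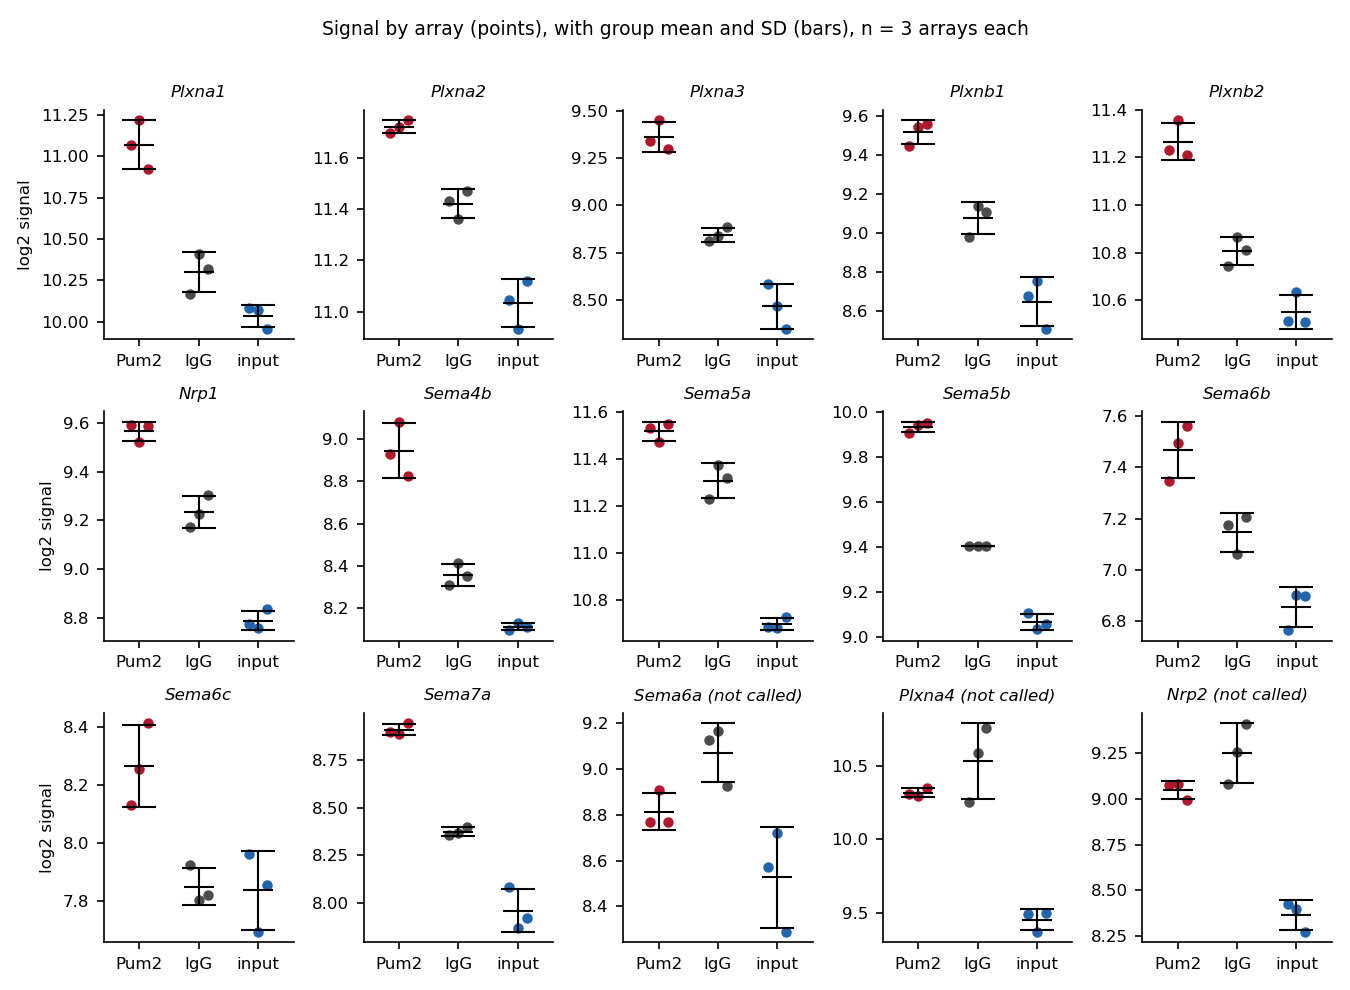
Log2 signal of each array (points) with group mean and SD (bars) for the 12 genes called higher in Pum2 over IgG and for the 3 with the lowest difference from IgG, Sema6a, Plxna4 and Nrp2; the vertical scale differs between panels. In 11 of the first 12 panels no arrays of different groups overlap, the exception being IgG and input for Sema6c, and in the last 3 the mean of the IgG arrays is the highest.

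Of the ligands, none of the 7 secreted class 3 semaphorins was called against IgG by limma, where 19.4% of all genes were called higher. Sema3a, Sema3b, Sema3d, Sema3e and Sema3g lay below the median signal, where calls were rarer. Of the brighter genes, 34.1% were called higher, so this count does not separate class from signal level. An unadjusted p under 0.05 was reached by 2 of the 7, both higher, and by 5461 of all 22180 genes in that direction. Against input 5 of 7 were called higher (21.6% of all genes), and in IgG over input 2 of 7 (8.25% of all genes). Sema3c, which guides callosal axons and acts in vessels, had the largest rise over input of the class. It read 7.98, 8.04 and 8.04 with Pum2, 7.65, 7.65 and 8.06 with IgG and 7.11, 7.24 and 7.13 in input. IgG replicate 3 reached the level of the Pum2 arrays. The differences were 0.86 ± 0.11 for Pum2 over input (adjusted p = 1.54e-04) and 0.63 ± 0.11 for IgG over input, and 0.23 ± 0.11 for Pum2 over IgG (adjusted p = 0.147), which was called without IgG replicate 3 (0.366, adjusted p = 0.00814). Sema3d, of low signal, rose over input by 0.72 ± 0.13. It was called against IgG under 3 of 14 alternatives, among them leaving out IgG replicate 2 (adjusted p = 0.0323), and its call in IgG over input was lost under 8 of 14 alternatives, among them leaving out IgG replicate 2 or 3 or any of the input arrays. Quantile normalization over all features brought Sema3d, Sema3f and Sema3g past the threshold against IgG. Sema3g, known from arteries, rose over input by 0.50 ± 0.10, and Sema3f, the repellent ligand of Nrp2, by 0.40 ± 0.10.

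The remaining class 3 genes were dim and stood close to the threshold or below it. Sema3b averaged 5.63 ± 0.14 with Pum2, 5.60 ± 0.11 with IgG and 5.34 ± 0.14 in input (SD), and its call over input (0.29 ± 0.10, adjusted p = 0.0497) was lost under 9 of 14 alternatives. Sema3a, the classical growth cone collapsing cue, averaged 5.79 ± 0.09 with Pum2, 5.78 ± 0.04 with IgG and 5.56 ± 0.22 in input, with overlapping arrays in every comparison. Sema3e, the ligand of Plxnd1, averaged 5.33 ± 0.23 with Pum2, 5.29 ± 0.22 with IgG and 4.98 ± 0.15 in input, and was not called in any comparison.

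Among the 6 class 4 semaphorins, membrane proteins that bind mainly class B plexins, only Sema4b was called against IgG, and 5 were called against input. Of all genes, 19.4% and 21.6% were called higher in these comparisons. Sema4b read 8.93, 9.08 and 8.83 with Pum2, 8.31, 8.41 and 8.35 with IgG and 8.10, 8.13 and 8.11 in input. Its Pum2 arrays stood well apart, with a difference of 0.59 ± 0.08 from IgG (adjusted p = 3.68e-04) and 0.83 ± 0.08 from input. IgG over input was 0.25 ± 0.08 (adjusted p = 0.0624) and was called higher under 5 of 15 alternatives. Sema4c, a ligand of Plxnb2, read 10.15, 10.12 and 9.79 with Pum2, 9.68, 9.87 and 9.93 with IgG and 9.10, 9.19 and 9.0 in input. The precipitates overlapped and both exceeded input, Pum2 by 0.92 ± 0.11 (1.90-fold) and IgG by 0.73 ± 0.11 (1.66-fold, adjusted p = 0.00168). Pum2 and IgG differed by 0.19 ± 0.11 (adjusted p = 0.243). Sema4d, the ligand of Plxnb1, rose over input by 0.48 ± 0.15 (adjusted p = 0.0300), and Sema4g by 0.41 ± 0.10. Sema4a averaged 6.18 ± 0.04 with Pum2, 6.17 ± 0.03 with IgG and 5.92 ± 0.11 in input, and was called over input (0.25 ± 0.08, adjusted p = 0.0258). The calls of Sema4d and Sema4a over input were each lost under 6 of 15 alternatives. Sema4f was not called in any comparison.

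Both class 5 semaphorins, membrane proteins with thrombospondin repeats that bind Plxna1 and Plxna3 in the retina, were called higher in each comparison. Of all genes, 19.4% were called higher in Pum2 over IgG, 21.6% in Pum2 over input and 8.25% in IgG over input. Sema5b read 9.91, 9.94 and 9.95 with Pum2, 9.40 in all 3 IgG arrays, and 9.11, 9.03 and 9.06 in input. The spread within each group was small beside the steps between them, 0.53 ± 0.06 for Pum2 over IgG (1.44-fold, adjusted p = 1.74e-04), 0.87 ± 0.06 for Pum2 over input and 0.34 ± 0.06 for IgG over input. Sema5a read 11.53, 11.47 and 11.55 with Pum2, 11.23, 11.37 and 11.32 with IgG and 10.68, 10.68 and 10.73 in input. Most of its rise over input was also present with IgG, 0.82 ± 0.07 for Pum2 and 0.61 ± 0.07 for IgG. Its difference between the precipitates, 0.21 ± 0.07, passed narrowly (adjusted p = 0.0443) and was lost under 10 of 15 alternatives, among them leaving out any of the Pum2 arrays, IgG replicate 1 or IgG replicate 3 (0.170 to 0.232).

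The 4 class 6 semaphorins, transmembrane ligands of class A plexins, held 2 genes called higher than in IgG, Sema6c and Sema6b, beside 19.4% of all genes. Sema6c read 8.13, 8.25 and 8.41 with Pum2, 7.92, 7.80 and 7.82 with IgG and 7.96, 7.69 and 7.85 in input. IgG and input overlapped (0.01 ± 0.10, adjusted p = 0.949), and Pum2 exceeded IgG by 0.42 ± 0.10 (adjusted p = 0.00831) and input by 0.43 ± 0.10. Sema6b, a ligand of Plxna4, read 7.35, 7.5 and 7.56 with Pum2, 7.18, 7.06 and 7.20 with IgG and 6.76, 6.90 and 6.90 in input. It rose over IgG by 0.32 ± 0.08 (adjusted p = 0.0150), a call lost without Pum2 replicate 3 (0.274) or IgG replicate 2 (0.278) and with centring on the brighter genes (0.195).

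Sema6d, a ligand of Plxna1, read 9.37, 9.39 and 9.39 with Pum2, 9.35, 9.37 and 9.48 with IgG and 8.85, 8.81 and 8.62 in input. The precipitates could not be told apart (-0.01 ± 0.08, adjusted p = 0.921) and exceeded input by nearly the same amount, 0.63 ± 0.08 with Pum2 and 0.64 ± 0.08 with IgG. Sema6a, a ligand of Plxna2 and Plxna4, averaged 8.81 ± 0.08 with Pum2, 9.07 ± 0.13 with IgG and 8.53 ± 0.22 in input (SD). Its Pum2 arrays lay wholly below its IgG arrays, with a difference of -0.26 ± 0.12 (adjusted p = 0.126), the lowest of all members, which was called with centring on the brighter genes (-0.384, adjusted p = 0.0269) or with quantile normalization of the genes run again (-0.373, adjusted p = 0.0302). IgG exceeded input by 0.55 ± 0.12 (adjusted p = 0.00876), and Pum2 over input was not called (0.29 ± 0.12, adjusted p = 0.0829), except under 4 of 15 alternatives, among them leaving out input replicate 2.

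Sema7a, a lipid-anchored semaphorin that binds Plxnc1 and beta1 integrin, read 8.90, 8.89 and 8.94 with Pum2, 8.35, 8.37 and 8.40 with IgG and 8.09, 7.87 and 7.92 in input. The groups were separate, and its rise over input was the largest of the ligands, 0.95 ± 0.08 (1.93-fold, adjusted p = 8.15e-06). It exceeded IgG by 0.53 ± 0.08 (adjusted p = 4.38e-04), and IgG exceeded input by 0.41 ± 0.08.

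Set against each other as groups, receptors had the higher medians in each comparison, an order that reversed in IgG over input with the mean of a gene's features (0.255 for receptors and 0.299 for ligands). The difference was not tested, since the genes of a list are not replicates. Against IgG, 6 of 11 receptors (54.5%) and 6 of 20 ligands (30.0%) were called higher, with median log2 differences of 0.31 and 0.21, beside 0.04 for all genes. The ligand share is close to that of the brighter genes, 34.1%, and among the 14 ligands at or above the median signal it was 42.9%, against 60.0% of the 10 such receptors. Against input, 9 of 11 receptors and 16 of 20 ligands were called higher, beside 21.6% of all genes and 37.0% of the brighter ones. The medians were 0.71 and 0.49, beside 0.07 for all genes. Of the members at or above the median signal, 90% of the receptors and 92.9% of the ligands were called higher than in input. In IgG over input, 7 of 11 receptors and 9 of 20 ligands were called higher, beside 8.25% of all genes and 13.8% of the brighter ones. The medians were 0.38 and 0.30, beside 0.02 for all genes. At or above the median signal, 70% of the receptors and 57.1% of the ligands were called higher in IgG over input. The 6 ligands called against IgG all belonged to the 13 membrane-bound semaphorins of classes 4 to 7. That is 46.2%, beside 19.4% of all genes and 34.1% of the brighter ones. The median of the 13 was 0.21, as was that of the 7 secreted ones (0.21). Of the secreted ones, Sema3a, Sema3b, Sema3d, Sema3e and Sema3g were of low signal, and of the membrane-bound ones only Sema4f. Class and signal level therefore cannot be told apart in these counts.

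The same medians can be read array by array. Taken as the deviation from the mean of the 3 input arrays, the median over the receptors was 0.71, 0.73 and 0.71 in the Pum2 arrays and 0.33, 0.37 and 0.42 in the IgG arrays. The median over the ligands was 0.51, 0.62 and 0.60 in the Pum2 arrays and 0.24, 0.37 and 0.34 in the IgG arrays, and in IgG replicate 2 it was 0.372, against 0.370 for the receptors. All genes together had medians of 0.06 in each Pum2 array and 0.01 to 0.02 in the IgG arrays.

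**Figure D3:**
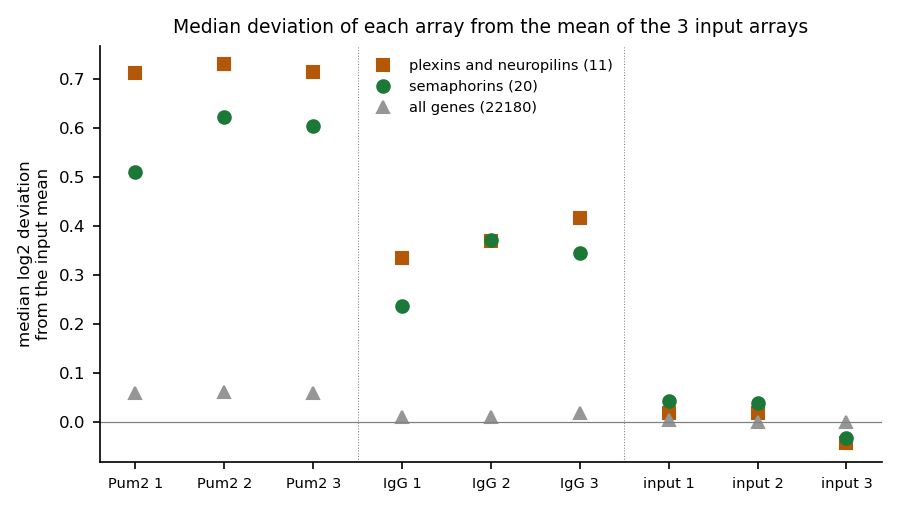
Median log2 deviation from the mean of the 3 input arrays (y axis) in each of the 9 arrays (x axis), for the 11 receptors, the 20 ligands and all 22180 genes. The Pum2 arrays lie at 0.51 to 0.73 for both families, the IgG arrays at 0.24 to 0.42, and all genes stay near 0.

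The differences from IgG of known ligand and receptor partners can be set side by side. Sema7a (0.53) stood beside Plxnc1 (0.31, not called), and Sema4d (0.27, not called) beside Plxnb1 (0.44). Sema4c (0.19, not called) stood beside Plxnb2 (0.46), and Sema3e (0.04, not called) beside Plxnd1 (0.26, not called). Sema3a (0.01, not called) stood beside its binding receptor Nrp1 (0.33), and Sema3f (0.21, not called) beside Nrp2 (-0.20, not called). Sema6a (-0.26, not called) stood beside Plxna2 (0.30) and Plxna4 (-0.22, not called). Whether partners differ from each other was not tested.

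Genes that act with these receptors, a list of 59 co-receptors and signal relay genes of which 55 were measured, moved less uniformly. Against IgG, 20 of 55 were called higher (36.4%) and 2 lower, with a median of 0.15, beside 19.4% and 11.4% of all genes and 34.1% higher among the brighter ones. The share called higher is thus close to that of the brighter genes. Crmp1, a cytosolic mediator of semaphorin signals in growth cones, rose by 1.28 ± 0.09, and its relative Dpysl4 by 0.93 ± 0.08. Erbb2, a receptor kinase that associates with class B plexins, rose by 0.98 ± 0.08, and Met, another kinase partner of these plexins, by 0.82 ± 0.11 at low signal. Arhgef11, an exchange factor that docks on class B plexins, rose by 0.72 ± 0.07, and Rras, a GTPase inactivated by plexins, by 1.15 ± 0.12. Arhgef12, the second exchange factor bound by class B plexins, went the other way (-0.46 ± 0.09, adjusted p = 0.00314), as did Rnd2, a GTPase of migrating neurons (-0.41 ± 0.11, adjusted p = 0.0171); these were the 2 lower calls.

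Against input, 28 of the 55 relay genes were called higher (50.9%) and 4 lower, with a median of 0.24, beside 21.6% and 13.1% of all genes and 37.0% higher among the brighter ones. L1cam, an adhesion molecule that joins Nrp1 in the receptor of Sema3a, rose by 1.20 ± 0.10, Ptk7, a pseudokinase whose fly relative associates with a plexin, by 1.08 ± 0.10, Arhgef11 by 0.95 ± 0.07, Erbb2 by 0.95 ± 0.08, Dpysl4 by 0.87 ± 0.08 and Crmp1 by 0.86 ± 0.09. The 4 lower calls were those of Gipc1, an adaptor that binds Nrp1 (-0.33), Cdk5, a kinase downstream of Sema3a (-0.37), Rnd2 (-0.74) and Tyrobp, a signal adaptor of myeloid cells (-0.64).

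In IgG over input 11 of the 55 relay genes were called higher (20%) and 4 lower, with a median of 0.07, beside 8.25% and 9.72% of all genes and 13.8% higher among the brighter ones. With an intensity trend 8 were called lower, as were 2430 of all 22180 genes. Arhgef12 rose by 0.83 ± 0.09, Gsk3b, a kinase of the Sema3a response, by 0.67 ± 0.08, Mical3 by 0.48 ± 0.08, Dpysl3 by 0.44 ± 0.08 and Vav2 by 0.47 ± 0.09, while Rras2 fell by 0.52 on the log2 scale. The other lower calls were those of Gipc1 (-0.39), Crmp1 (-0.42) and Rras (-0.55). Crmp1 and Rras were thus below input with IgG and above it with Pum2 (0.86 ± 0.09 and 0.60 ± 0.12 for Pum2 over input). On the features used, none of the 31 ligands and receptors had this order, and their differences of IgG from input were all positive. The dimmer second feature of Plxna1 did have it, with -0.18 for IgG over input, not called, and 0.42 for Pum2 over input. The second feature of Plxnb1 lay below input with IgG (-0.36, not called) and with Pum2.

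**Figure D4:**
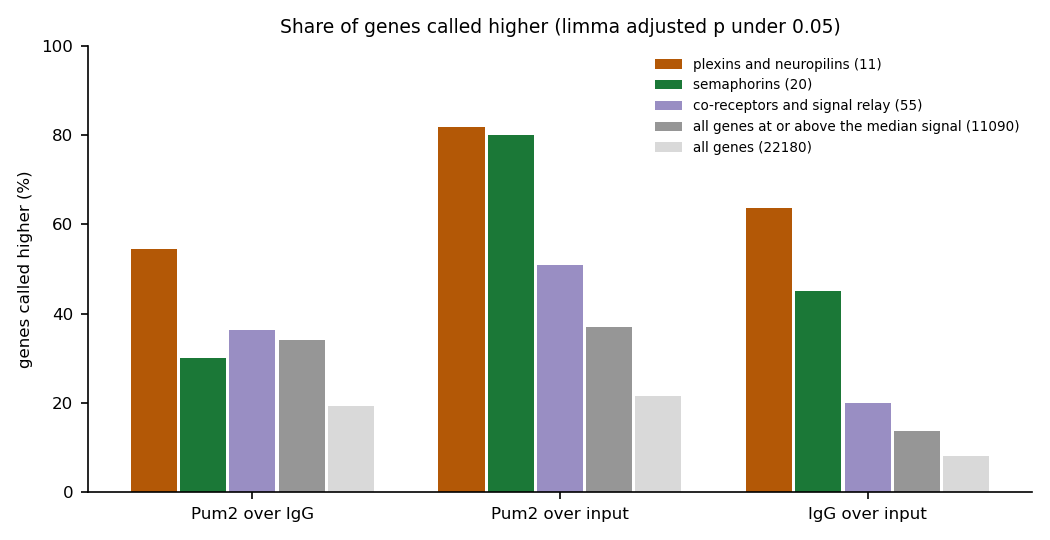
Share of genes called higher (y axis, percent, limma adjusted p under 0.05) in each comparison for receptors, ligands, co-receptors and signal relay genes, all genes at or above the median signal and all genes. Receptors reach 54.5%, 81.8% and 63.6% from left to right, against 19.4%, 21.6% and 8.25% of all genes. The genes at or above the median signal reach 34.1%, 37.0% and 13.8%.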

How the data were processed

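The deposited log2 values were made with RMA in Affymetrix Expression Console by the authors, per the submitters' processing notes; no version and no genome build is given in the sources used here. Per the labels' protocols, precipitates were prepared with a commercial RNA immunoprecipitation kit, and cDNA was amplified with a kit for small RNA amounts. Of 41345 features, 23521 carry exactly 1 gene symbol in the probe table given with the series. Taking for each gene the feature of highest mean over the 9 arrays left 22180 genes, and no filter on low values was applied. The symbols of all 31 members are those of RefSeq (GRCm38.p6).

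The test was that of limma (version 3.58.1, R version 4.3.3). A single model held the 9 arrays and 3 groups and left 6 residual degrees of freedom, with the Benjamini-Hochberg adjustment over all genes. An exact permutation test of 3 against 3 arrays cannot go below p = 0.1, so calls rest on limma's moderated spread. Members and lists were chosen with earlier results of these data known. Arrays are printed singly for members called in Pum2 over IgG and for the 4 ligands and 4 receptors with the largest difference in each comparison, and up to 6 relay genes per comparison by moderated t; the lower calls of relay genes were named after their values were seen. Replicate numbers were not used as pairs. Alternatives changed the scaling, the feature rule, the filter on signal, the variance model and the groups in the fit, added the replicate number as a block, or left out 1 array each. Arrays have no depth, and their number limits precision. Transcript sequences were not used here, so Pumilio elements were not counted. The 4 erythroid markers listed were not analysed here.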

Additional observations from a re-analysis of the deposited data

Results flagged for a closer look

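A second feature of Plxna1, dimmer than the one used in the comparisons, lay outside the main measurement. It was higher in the 3 Pum2 arrays (7.11, 7.14 and 6.90) than in the IgG arrays (6.74, 6.32 and 6.30) and the input arrays (6.63, 6.72 and 6.55), with a log2 difference from IgG of 0.600 and a limma adjusted p of 0.00957 over all features of the table. Its direction against IgG was that of the brighter feature. In IgG over input it was not, with -0.18 here (not called) against 0.26 for the brighter feature.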

How the results depend on the processing

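Each result was recomputed under 15 alternatives per comparison, of which quantile normalization over all features of the table was chosen after seeing the data. Under these, the members called higher numbered 8 to 19 for Pum2 over IgG, 22 to 30 for Pum2 over input and 13 to 21 for IgG over input. Of the genes tested (22180, or 11090 with the filter on signal), 2790 to 8093, 3587 to 7845 and 1334 to 2346 were called higher in these comparisons. No member was called lower in the comparisons with input. The highest count against IgG, 19 (11 of them ligands), came with that added normalization. Members called lower than in IgG numbered 2 with quantile normalization of the genes, 3 with centring on the brighter genes and 0 to 2 with 1 array left out. Of all 22180 genes, 3027, 4072 and 2050 to 2258 were called lower under these. Scaling decided the balance of calls over all genes: 63.0% of the calls in Pum2 over IgG were higher, but 40.7% with centring, which took the median of all genes to -0.08, 53.5% with quantile normalization of the genes and 79.1% with that of all features (median 0.19). The shares in Pum2 over input were 62.3%, 49.7%, 55.8% and 76.6%.

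The ligand median against IgG was 0.143 with quantile normalization of the genes, 0.082 with centring, 0.259 with quantile normalization of all features and 0.140 to 0.226 with 1 array left out; the receptor median was 0.225 and 0.188 with the first of these and with centring. Against input the ligand median was 0.620 among brighter genes, 0.440 with quantile normalization of the genes, 0.406 with centring, 0.630 with that of all features and 0.461 to 0.568 with 1 array left out, and the receptor median 0.628 with centring. In IgG over input the receptor median was 0.255 with the mean of a gene's features and 0.318 to 0.394 with 1 array left out. Relay genes called higher than in IgG numbered 13 with centring (2790 of 22180 genes). Those called lower numbered 5 among brighter genes (2330 of 11090 genes) and 4 with an intensity trend (2637 of 22180). They numbered 6 with quantile normalization of the genes (3027), 6 with centring (4072) and 1 to 3 with 1 array left out (2050 to 2258). In IgG over input 7 were called lower among brighter genes (2532 of 11090) and 8 with an intensity trend (2430 of 22180). The cause of these shifts was not tested.

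With the replicate number as a block, 13 members were called higher in Pum2 over IgG, 27 in Pum2 over input and 17 in IgG over input, and 4 relay genes lower than in IgG. Of all 22180 genes, 4344, 4855 and 1856 were called higher in these comparisons, and 2521 lower than in IgG. The numbers were not taken as pairs, since it is not stated outright that same-numbered arrays share a starting sample. Deviations from the group means correlated at 0.002 to 0.135 for same-numbered arrays of different groups. For arrays of different number they correlated at -0.13 to 0.041, mostly below the same-numbered values. Whether same-numbered arrays share a starting sample was not tested. Among single members, 29 differences had another sign under an alternative, all uncalled and at most 0.139 in size, and no called difference reversed.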
